A study of Mus musculus with 12 samples.

Results

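The 10 genes described here encode the catalytic subunit of telomerase (Tert), a subunit that binds its RNA (Dkc1), the shelterin proteins that coat telomeres (Terf1, Terf2, Terf2ip, Tinf2, Acd, Pot1a and Pot1b) and a helicase that unwinds telomeric DNA (Rtel1). They were listed by name, with no threshold on their values, though earlier results of these data were known. Each of the 10 had a row among the 34245 genes of the deposited raw count table. The study sequenced poly(A) RNA of male mice from 2 cell types of the small intestine, stem cells (ISC) and adult enterocytes (AE), asking how ageing changes gene expression in each. All animals were C57BL/6 and carried Lgr5-EGFP-IRES-CreERT2, a knock-in that places a green fluorescent reporter in the stem cell gene Lgr5. ISC were sorted from crypts as GFP-high cells, so that Lgr5 itself entered the sort, and AE from villi as Epcam-high cells without CD31 and CD45. Young mice were about 8 months old and aged mice about 27 months old, and each of the 4 groups (young ISC, aged ISC, young AE, aged AE) held 3 libraries.

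Libraries are named here by the codes of their count columns, Y1, Y2 and Y3 for young and O1, O3 and O5 for aged mice. An ISC and an AE library share each code. The titles of 8 of the 12 samples name a different group beside their code, so each column was placed by its own name and its cell type checked against markers, while no marker here checks its age. Summed over 12 stem cell markers, the level was between 6326 and 8604 CPM (counts scaled to library size) in the ISC libraries and between 167 and 758 CPM in the AE libraries, and 12 enterocyte markers summed to between 1833 and 9861 CPM in ISC and between 68657 and 110302 CPM in AE. Library totals ran from 11893817 to 110794420 counts, the deepest being Y3 AE. The 10 genes held between 29 counts (Tert in O3 AE) and 3744 counts (Dkc1 in O1 ISC) in a library, and all 10 had enough counts to be tested in every comparison. The study's methods list 3 animals of each age, so the 3 libraries of a group are read here as separate animals, although no label ties a library to an animal.

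Telomeres are the repeated ends of chromosomes, which shorten with replication. Telomerase is a reverse transcriptase that adds repeats back from an RNA template, and in most adult human tissues its activity is low outside stem and dividing cells. Its activity was not measured in these mice. Shelterin covers the repeats and keeps chromosome ends from being treated as breaks: Terf1 and Terf2 bind the double-stranded repeats, Tinf2 links both to Acd, Acd carries Pot1 onto the single-stranded overhang and helps to recruit telomerase, and Terf2ip binds Terf2. In the crypt, ISC divide and their descendants stop dividing as they become the enterocytes that line the villus.

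Both parts of the telomerase enzyme measured here were lower in AE than in ISC, at each age. Tert lies at chr13:73626911-73649843 on the plus strand of GRCm38 and Dkc1 at chrX:75095854-75109777 on the plus strand. The 250 bases before the start of each, taken from RefSeq (GRCm38.p6), are printed below with those of Terf2ip (plus strand, chr8:112011398-112020528), whose transcripts were not called different between the cell types. Each window ends at the start that RefSeq gives, which for Terf2ip lies upstream of the start in the count table. Capitals mark matches to the GC box GGGCGG, searched on both strands and here present as its complement.
Tert (chr13:73626661-73626910): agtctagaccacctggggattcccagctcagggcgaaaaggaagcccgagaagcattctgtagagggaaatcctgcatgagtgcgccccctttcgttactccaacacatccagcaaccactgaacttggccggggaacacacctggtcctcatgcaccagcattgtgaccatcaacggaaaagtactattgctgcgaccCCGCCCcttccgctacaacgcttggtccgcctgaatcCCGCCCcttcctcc
Dkc1 (chrX:75095604-75095853): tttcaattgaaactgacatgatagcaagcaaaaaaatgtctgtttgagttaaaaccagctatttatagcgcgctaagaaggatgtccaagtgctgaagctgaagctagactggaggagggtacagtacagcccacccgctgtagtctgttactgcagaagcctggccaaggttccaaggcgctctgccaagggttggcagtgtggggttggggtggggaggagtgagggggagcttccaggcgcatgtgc
Terf2ip (chr8:112011109-112011358): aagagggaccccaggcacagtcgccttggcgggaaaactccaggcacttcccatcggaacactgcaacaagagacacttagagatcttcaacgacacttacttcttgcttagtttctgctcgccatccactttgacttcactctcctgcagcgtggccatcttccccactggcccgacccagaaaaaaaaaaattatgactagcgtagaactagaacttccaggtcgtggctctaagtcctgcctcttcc
The Tert window held 2 GC boxes, beginning 51 and 14 bases before the start, and the windows of Dkc1 and Terf2ip held none. RefSeq promoters were found for 9 of the 10 genes, all but Terf1. The GC box was in 4 of the 9 (Tert, Rtel1, Pot1a and Pot1b), against 32.7% of 32851 mouse promoter windows of this length. The CCAAT box, spelled CCAAT and searched on both strands, was in 3 of the 9 (Terf2, Acd and Pot1b, the last with a pair of matches that overlap on opposite strands) against 33.8% of all windows. The E-box CACGTG, which reads the same on both strands, was in 0 of the 9 against 6.02%, and the telomere repeat TTAGGG, on either strand, was in 1 of the 9 (Pot1b) against 9.32%. These are matches of letters and carry no statement on binding.

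Tert had the lowest mean level per length of the 10 genes in every group. In young ISC its level was 15.7 CPM in Y1, 7.33 CPM in Y2 and 5.73 CPM in Y3, and in young AE it was 5.07 CPM in Y1, 3.56 CPM in Y2 and 2.25 CPM in Y3. Aged ISC had 8.64 CPM in O1, 6.21 CPM in O3 and 9.64 CPM in O5, and aged AE had 5.23 CPM in O1, 2.60 CPM in O3 and 3.27 CPM in O5. All AE libraries lay below all ISC libraries of their age, closest in young mice between Y3 ISC and Y1 AE. The fitted log2 fold change of AE relative to ISC was -1.46 ± 0.46 (SE, n = 3 and 3, 95% interval -2.50 to -0.42) in young mice, a level 2.75-fold lower, with a Benjamini-Hochberg adjusted p of 0.0267 by the quasi-likelihood test of edgeR. In aged mice it was -1.22 ± 0.31 (SE, edgeR adjusted p = 0.00507), a level 2.33-fold lower. The call in young mice ended without Y1 ISC (log2 fold change -0.90, edgeR adjusted p = 0.117) and without Y3 AE (-1.22, edgeR adjusted p = 0.0502). Y1 ISC had the highest summed T cell and intraepithelial lymphocyte markers of the ISC libraries (25.6 CPM over 12 markers, against 4.04 to 11.6 CPM in the other ISC libraries) and the highest summed Paneth cell markers (1608 CPM, against 545 to 1033 CPM). Among AE libraries the same lymphocyte markers summed to 57.1 CPM in Y1 and 59.4 CPM in O1, the libraries with most Tert at each age, and to between 18.8 and 31.1 CPM in the others. Other libraries went the opposite way. In aged ISC, O5 had most Tert and the lowest sum (4.04 CPM), and O3 had least Tert and the highest sum (6.21 CPM). In aged AE, O3 had a higher sum than O5 (31.1 against 21.1 CPM) but less Tert. Of the 12, Cd2 was at 0 in the libraries of aged ISC and aged AE. The part of these cells in the Tert level was not tested. In bulk RNA, fewer cells that express a gene and less RNA of it per cell cannot be told apart.

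Dkc1, the pseudouridine synthase dyskerin that holds the telomerase RNA and other box H/ACA RNAs, showed the widest gap between ISC and AE of the 10 genes. It stood at 92.3 CPM in Y1, 113 CPM in Y2 and 93.1 CPM in Y3 in young ISC, and at 9.66, 21.5 and 4.43 CPM in the AE libraries of the same codes. In aged mice ISC had 105 CPM in O1, 97.9 CPM in O3 and 77.7 CPM in O5, and AE had 6.47, 5.29 and 4.14 CPM. No AE library came near an ISC library. Relative to ISC, Dkc1 was 8.58-fold lower in young AE (log2 fold change -3.10 ± 0.51, edgeR adjusted p = 0.00342) and 18.5-fold lower in aged AE (-4.21 ± 0.20, edgeR adjusted p = 2.11e-07). Among the AE libraries Y2 had most Dkc1, at 21.6% of the mean of young ISC, and it also had most of the proliferation marker Mki67, at 30.4% of the young ISC mean. Y3 AE had least of both in young mice, with 4.45% for Dkc1 and 3.44% for Mki67. Y2 AE also had most of the stem cell markers Lgr5 (4.78% of the young ISC mean) and Olfm4 (7.47%) among AE libraries. The same held for the Paneth cell marker Lyz1 (17.0%). The part of crypt cells in this spread was not tested. Without Y2 AE the young log2 fold change was -3.97 and was still called (edgeR adjusted p = 7.70e-05). Dkc1 shares 45 exon bases, 1.09% of its length, with Mpp1 on the other strand, which had 699 to 1542 counts in ISC and 6763 to 54512 in AE.

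The ratio of the 2 telomerase transcripts moved with cell type. Here and below RPKM is CPM per kilobase of merged exons, so that genes can be set side by side. Dkc1 exceeded Tert 17.4 ± 8.03-fold (SD, n = 3) in young ISC and 16.7 ± 5.36-fold in aged ISC, and by 4.60 ± 3.30-fold in young AE and 2.1 ± 0.63-fold in aged AE. In aged mice every ISC ratio (lowest 11.2) was above every AE ratio (highest 2.83). In young mice the lowest ISC ratio, 8.16, and the highest AE ratio, 8.41, overlapped.

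**Figure D1:**
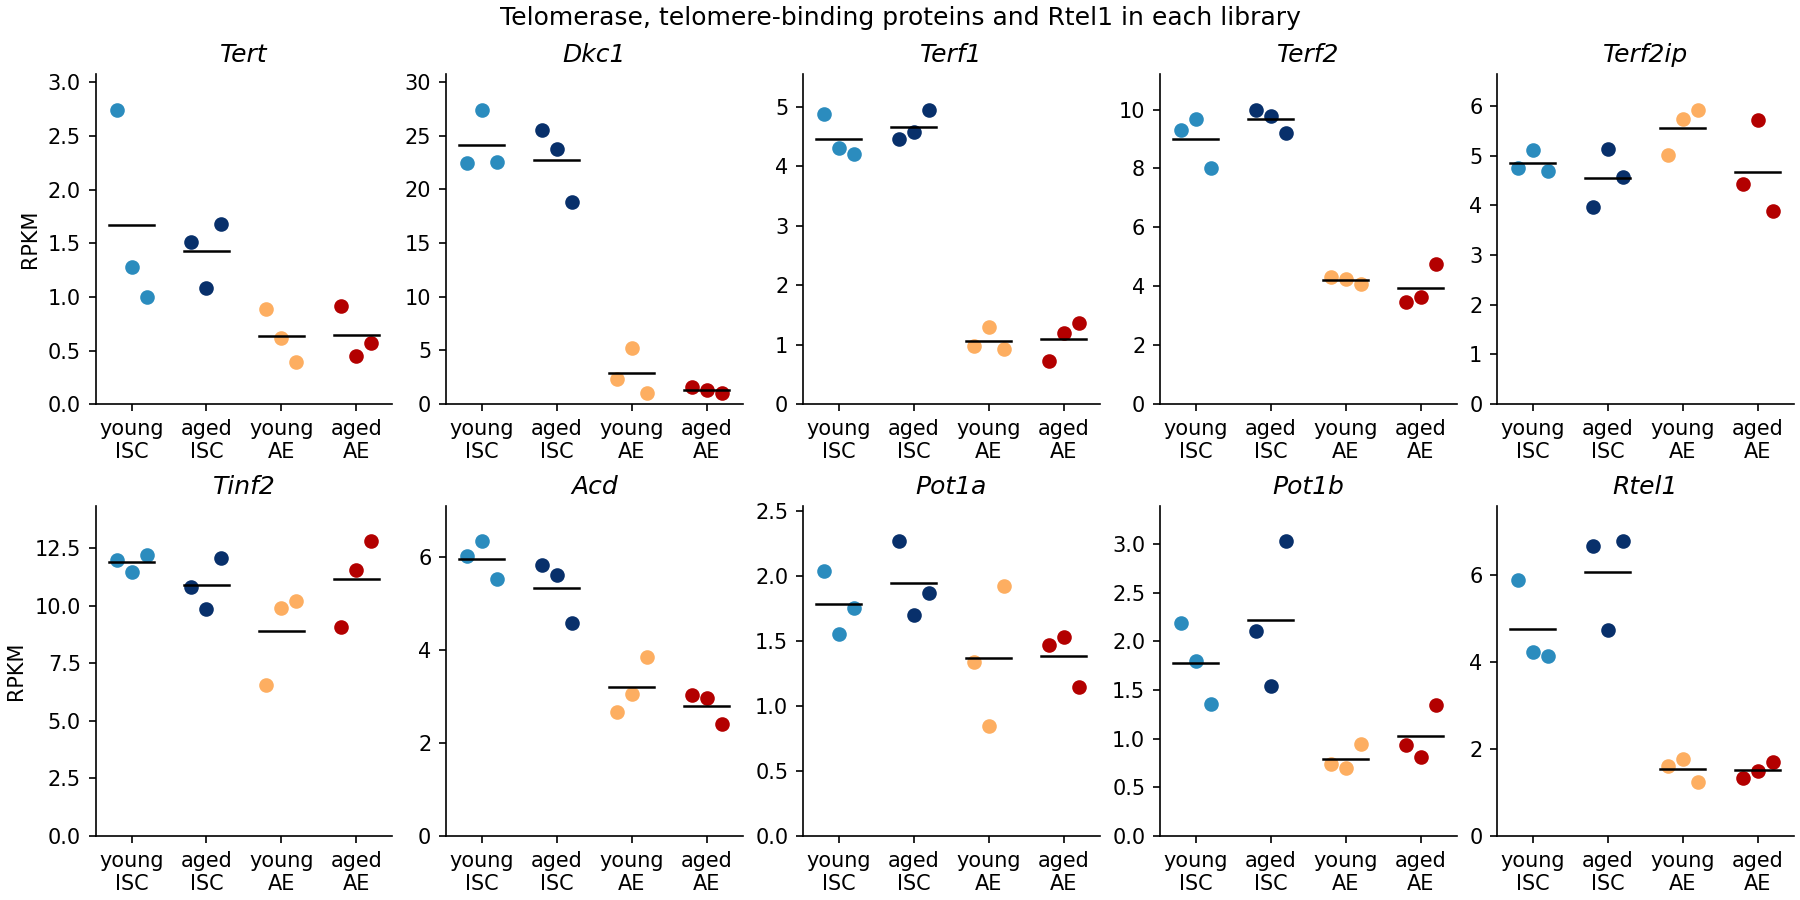
Level of each of the 10 genes in each library, in RPKM on linear axes that start at 0, with 1 panel per gene. Points are libraries in the order of their codes, bars are means of 3 libraries; the AE points of Tert, Dkc1, Terf1, Terf2, Acd, Pot1b and Rtel1 lie below all their ISC points, while those of Terf2ip (3.89 to 5.92 RPKM) overlap theirs (3.96 to 5.13 RPKM).

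Across the 10 genes, 7 were called lower in young AE than in young ISC and none higher, at an FDR of 0.05 by edgeR, beside 26.7% of all tested genes called lower and 55.6% called in either direction. In aged mice 8 of the 10 were called lower and none higher, beside 34.2% lower and 64.9% in either direction. All 3 AE libraries were below all 3 ISC libraries for 8 of the 10 genes at each age, where 30.7% of all genes were so in young and 38.1% in aged mice. The median log2 fold change of the 10 was -1.11 in young mice, beside 0.15 over all genes, and -1.21 in aged mice, beside -0.13. Leaving out 1 library at a time gave 6 or 7 called genes in young mice, 6 of them without Y1 ISC, and 7 or 8 in aged mice. Markers of other cell types moved with the same contrast. Paneth cell markers were called lower in AE for 5 of 6 in young mice (median log2 fold change -3.29) and 6 of 6 in aged mice (-3.83), with sums of 545 to 1608 CPM in ISC and 52.0 to 227 CPM in AE. Lymphocyte markers were called higher in AE for 1 of 11 and lower for 1 of 11 in young mice (median 1.005), and higher for 8 of 10 in aged mice (4.35), with sums of 4.04 to 25.6 CPM in ISC and 18.8 to 59.4 CPM in AE. Their part in the changes of the 10 genes was not tested. The 2 comparisons use different libraries, although libraries of both cell types share codes within an age.

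Of the proteins that bind the double-stranded repeats, Terf1 (chr1:15805646-15844052, plus strand) and its relative Terf2 (chr8:107069400-107096547, minus strand) were both called lower in AE, Terf1 with the larger fitted change. In young mice Terf1 was at 22.5, 19.9 and 19.4 CPM in ISC libraries Y1, Y2 and Y3 and at 4.50, 5.96 and 4.32 CPM in the AE libraries. In aged mice it was at 20.5, 21.1 and 22.8 CPM in ISC libraries O1, O3 and O5 and at 3.33, 5.56 and 6.33 CPM in AE. The groups were far apart, and Terf1 was 4.22-fold lower in young AE (log2 fold change -2.08 ± 0.22, edgeR adjusted p = 2.10e-04) and 4.46-fold lower in aged AE (-2.16 ± 0.24, edgeR adjusted p = 2.24e-05). Terf2 was at 42.8, 44.5 and 36.8 CPM in young ISC and 19.9, 19.5 and 18.7 CPM in their AE counterparts. Its aged ISC libraries had 46.0, 45.0 and 42.3 CPM, and its aged AE libraries 16.0, 16.8 and 21.8 CPM. Terf2 was thus 2.14-fold lower in young AE (-1.10 ± 0.16, edgeR adjusted p = 6.93e-04) and 2.57-fold lower in aged AE (-1.36 ± 0.17, edgeR adjusted p = 4.40e-05). Per length, Terf2 exceeded Terf1 2.02 ± 0.19-fold in young ISC and 2.08 ± 0.20-fold in aged ISC, and 4.02 ± 0.64-fold in young AE and 3.76 ± 0.93-fold in aged AE, with no overlap between ISC and AE ratios. The coding sequences of the pair are 61.5% identical over 1247 aligned bases and share no identical run longer than 17 bases, shorter than the reads of 50 bases.

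Terf2ip, the partner of Terf2 also called Rap1, was not called at either age. In young mice it was at 23.6, 25.4 and 23.2 CPM in ISC libraries Y1, Y2 and Y3 and at 24.8, 28.5 and 29.4 CPM in AE. Aged ISC had 19.6, 25.4 and 22.7 CPM in O1, O3 and O5 and aged AE had 22.0, 28.3 and 19.3 CPM. ISC and AE libraries overlapped at both ages. Its log2 fold change was 0.20 (95% interval -0.17 to 0.56, edgeR adjusted p = 0.322) in young mice and -0.03 (95% interval -0.47 to 0.41, edgeR adjusted p = 0.916) in aged mice. Terf2ip stood at 0.54 ± 0.04 times Terf2 per length in young ISC and 0.47 ± 0.07 times in aged ISC, and at 1.32 ± 0.15 times in young AE and 1.22 ± 0.38 times in aged AE. Each AE ratio was above each ISC ratio, the closest being 0.82 in an aged AE library and 0.59 in a young ISC library.

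Tinf2 (chr14:55679083-55681817, minus strand), the bridge between both Terf proteins and Acd, was the most abundant shelterin transcript per length in every group. Young ISC libraries had 30.3, 29.1 and 30.9 CPM and young AE libraries 16.6, 25.1 and 25.8 CPM, with Y1 AE lowest. Aged ISC libraries had 27.3, 24.9 and 30.5 CPM and aged AE libraries 23.0, 29.2 and 32.4 CPM. The young AE libraries were all below the young ISC libraries, but the log2 fold change of -0.42 (95% interval -0.88 to 0.05) was not called (edgeR adjusted p = 0.110) except with upper-quartile scaling (-0.54, edgeR adjusted p = 0.0434). In aged mice the libraries overlapped and the log2 fold change was -0.04 (95% interval -0.43 to 0.35, edgeR adjusted p = 0.850). Tinf2 shares 118 exon bases, 4.66% of its length, with Gmpr2 on the other strand. Gmpr2 had 335 to 683 counts in the ISC libraries and 197 to 1873 in the AE libraries, where Tinf2 had 462 to 974 and 203 to 2160. The merged exons of Tinf2 were limited to the coordinates of the count table because the annotation used for length extends the gene into Gmpr2.

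Acd, the Tpp1 protein that recruits telomerase and carries Pot1, lies at chr8:105695860-105701102 on the minus strand. It was at 21.8, 22.9 and 20.04 CPM in young ISC and at 9.66, 11.1 and 13.9 CPM in the AE libraries, and at 21.1, 20.3 and 16.6 CPM in aged ISC and 10.9, 10.8 and 8.73 CPM in aged AE. The cell types did not overlap at either age. Acd was 1.85-fold lower in young AE (log2 fold change -0.89 ± 0.20, edgeR adjusted p = 0.00617) and 2.00-fold lower in aged AE (95% interval of the log2 fold change -1.43 to -0.57, edgeR adjusted p = 0.00106). Because 1208 of its exon bases, 33.3% of its length, also belong to Carmil2 on the other strand, and whether counting used strand is not stated, its counts are less certain than those of the other genes. The study describes directional libraries and strand-specific quantitation for its read tracks, but names no strand setting for the counts. Counting without strand would give reads of the shared bases to both genes. Carmil2 itself had 4 to 18 counts in the ISC libraries and 1 to 74 in the AE libraries, where Acd had 342 to 752 and 80 to 1166. The use of strand was not tested.

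Mice carry a pair of Pot1 genes where most mammals have 1. Pot1a lies at chr6:25743737-25809246 and Pot1b at chr17:55652025-55712628, both on the minus strand. Their coding sequences, of 1923 bases each, are 78.9% identical over 1920 aligned bases. The first 180 coding bases (GENCODE M21) show how closely they resemble each other and how reads tell them apart, with the 27 bases that differ in capitals.
Pot1a: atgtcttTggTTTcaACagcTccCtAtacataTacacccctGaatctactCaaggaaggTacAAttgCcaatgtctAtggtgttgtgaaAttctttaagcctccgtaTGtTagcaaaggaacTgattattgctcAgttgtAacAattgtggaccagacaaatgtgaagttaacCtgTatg
Pot1b: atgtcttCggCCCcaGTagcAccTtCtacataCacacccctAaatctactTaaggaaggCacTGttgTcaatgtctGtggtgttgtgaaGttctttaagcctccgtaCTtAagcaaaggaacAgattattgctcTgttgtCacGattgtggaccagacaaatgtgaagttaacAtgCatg
The longest run that the coding sequences share is 41 bases, so no read of 50 bases from one can match the other without a mismatch. Pot1b was at 11.3, 9.31 and 7.02 CPM in young ISC and 3.85, 3.64 and 4.90 CPM in the AE libraries, and at 10.9, 7.99 and 15.7 CPM in aged ISC and 4.85, 4.21 and 6.98 CPM in aged AE. Every AE library was below every ISC library of its age, by the smallest margin in aged mice. It was 2.19-fold lower in young AE (log2 fold change -1.13 ± 0.28, edgeR adjusted p = 0.00913) and 2.29-fold lower in aged AE (-1.19 ± 0.30, edgeR adjusted p = 0.00516). Pot1a was at 17.7, 13.5 and 15.2 CPM in young ISC and at 11.6, 7.36 and 16.6 CPM in the AE libraries, so that Y3 AE lay among the ISC libraries. Aged ISC had 19.6, 14.7 and 16.2 CPM and aged AE 12.7, 13.3 and 9.93 CPM, without overlap. Pot1a was not called in young mice (-0.36, 95% interval -1.04 to 0.32, edgeR adjusted p = 0.327) but was called without Y3 AE (-0.78, edgeR adjusted p = 0.0359). In aged mice it was called 1.48-fold lower (-0.56 ± 0.20, edgeR adjusted p = 0.0307), a call that ended without O1 ISC (-0.44, edgeR adjusted p = 0.120), without O1 AE (-0.60, edgeR adjusted p = 0.0585) and without O5 AE (-0.44, edgeR adjusted p = 0.104). Whether Pot1a and Pot1b differed in their change was not tested. Their ratio per length was 1.03 ± 0.23 in ISC and 1.68 ± 0.42 in AE of young mice, and 0.93 ± 0.27 in ISC and 1.44 ± 0.53 in AE of aged mice, and ISC and AE ratios overlapped.

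**Figure D2:**
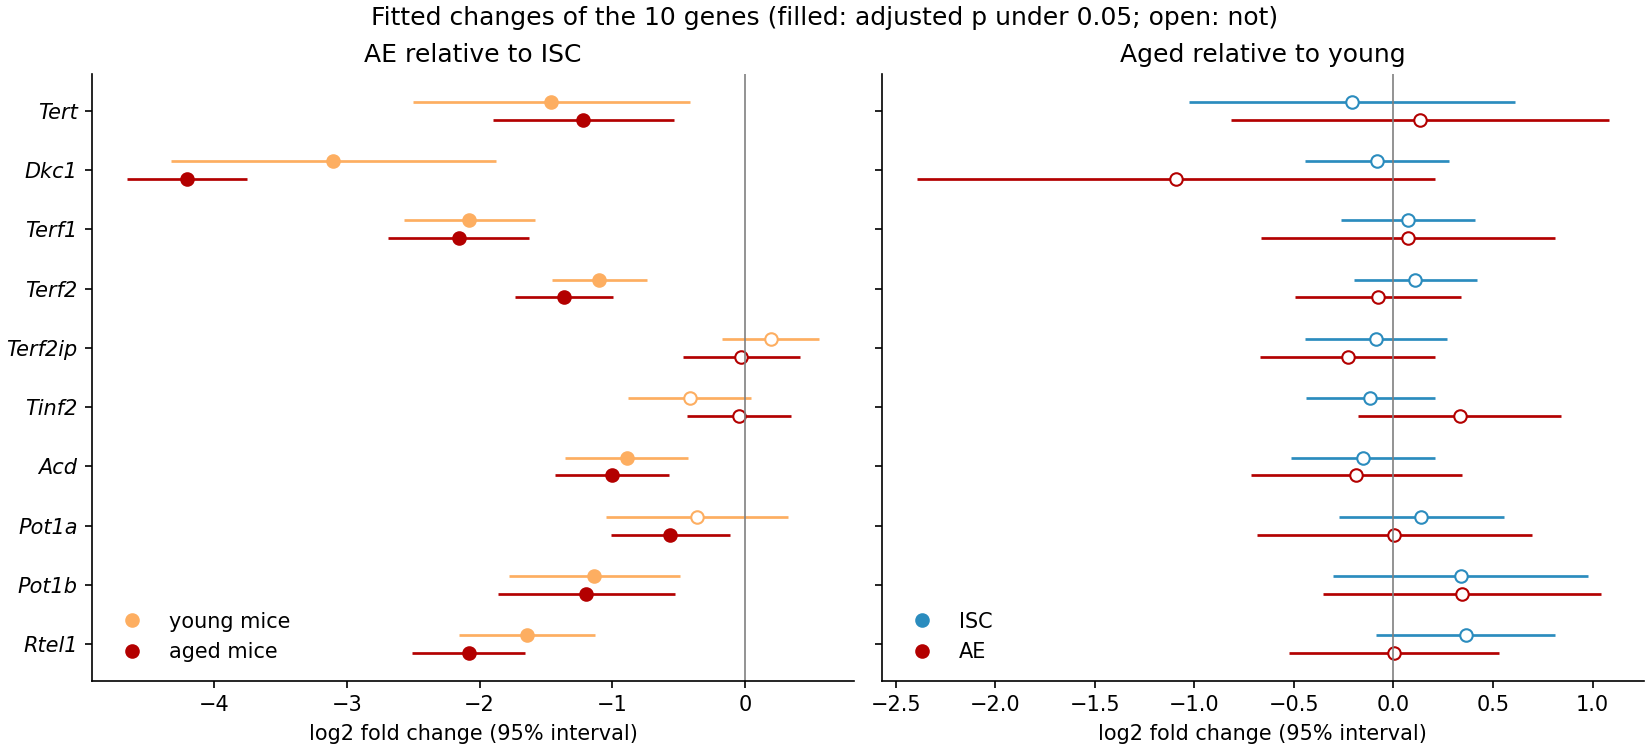
Fitted log2 fold changes with 95% intervals, AE relative to ISC on the left (orange, young mice; red, aged mice) and aged relative to young on the right (blue, ISC; red, AE), with filled points for an adjusted p under 0.05. All filled points are on the left and below 0, and Terf2ip and Tinf2 have open points at both ages.

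Rtel1 (chr2:181319739-181356616, plus strand), the helicase that opens telomeric loops and unwinds other structures ahead of replication, was at 39.0, 28.0 and 27.4 CPM in young ISC and 10.7, 11.7 and 8.17 CPM in the AE libraries. In aged mice it was at 44.2, 31.4 and 44.9 CPM in ISC and 8.85, 9.86 and 11.2 CPM in AE. The cell types were well apart at both ages. Rtel1 was 3.11-fold lower in young AE (log2 fold change -1.64 ± 0.22, edgeR adjusted p = 6.04e-04) and 4.24-fold lower in aged AE (-2.08 ± 0.19, edgeR adjusted p = 6.80e-06).

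Summed over the 7 genes, shelterin transcripts were 39.7 ± 1.78 RPKM (SD, n = 3) in ISC and 25.1 ± 3.18 RPKM in AE of young mice, and 39.3 ± 1.05 RPKM in ISC and 26.1 ± 2.55 RPKM in AE of aged mice. The make-up of that sum also differed. Terf1 supplied 11.2 ± 0.58% of it in young ISC and 11.9 ± 0.51% in aged ISC, but 4.30 ± 0.85% in young AE and 4.16 ± 0.94% in aged AE. Terf2ip supplied 12.2 ± 0.61% and 11.6 ± 1.70% in young and aged ISC, and 22.2 ± 0.94% and 18.0 ± 3.53% in young and aged AE. The share of Terf2 was lower in AE, and Tinf2 supplied the most in every group, from 27.7 ± 2.08% in aged ISC to 42.5 ± 3.47% in aged AE. ISC and AE shares did not overlap for Terf1, Terf2 and Terf2ip. The shares are a description, since a share of one gene depends on the others and on the exon lengths assumed.

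**Figure D3:**
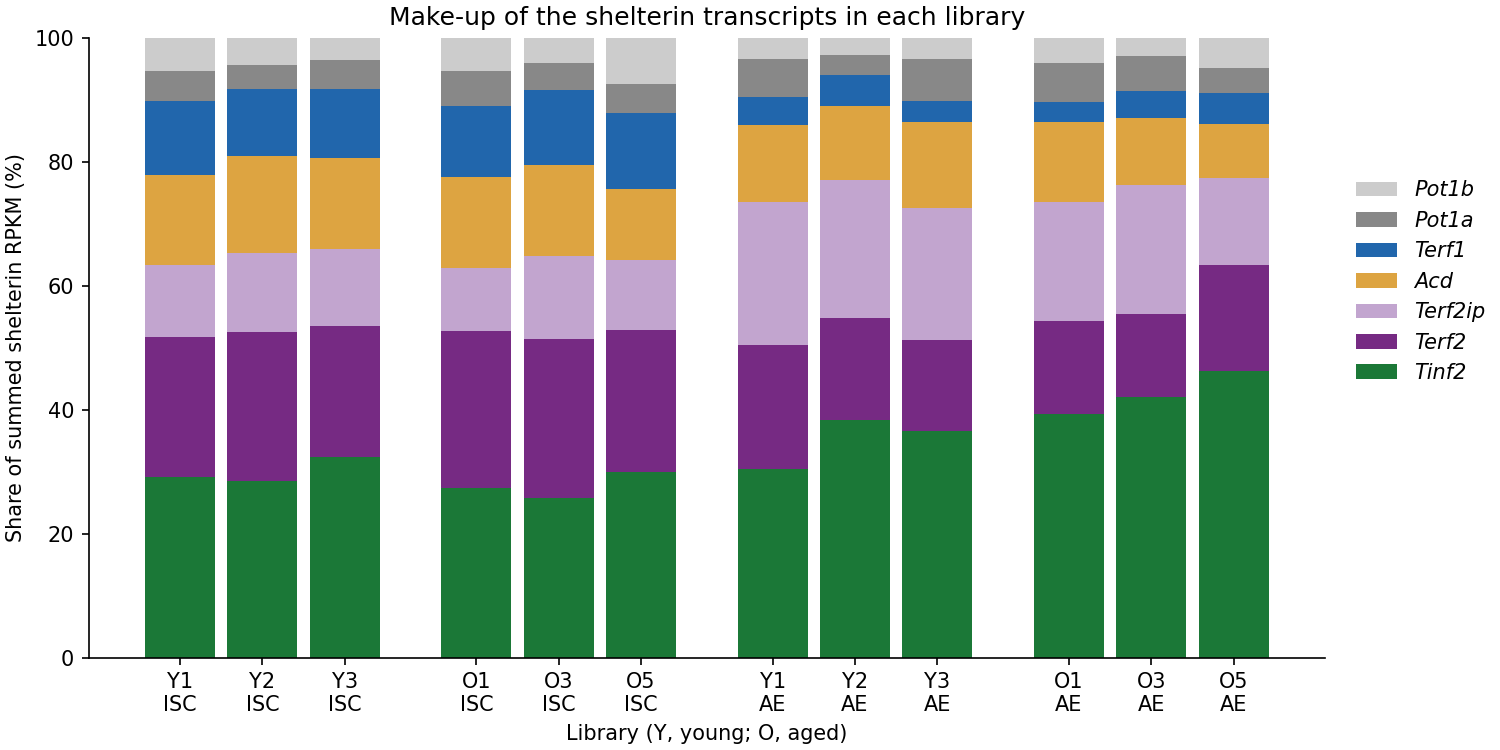
Share of each of the 7 shelterin genes in their summed RPKM, with 1 stacked bar per library, grouped as young ISC, aged ISC, young AE and aged AE. The band of Terf1 (blue) shrinks from 10.7 to 12.3% in ISC libraries to 3.12 to 5.01% in AE libraries, and that of Terf2ip (pale purple) widens.

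In order of level per length, young ISC ran from Dkc1 (24.1 RPKM), Tinf2 (11.9), Terf2 (9.00) and Acd (5.96), each with no library overlapping the next, through Terf2ip (4.85), Rtel1 (4.76) and Terf1 (4.47), whose libraries overlapped from one to the next, to Pot1a (1.78), Pot1b (1.78) and Tert (1.67 RPKM), which overlapped too. Aged ISC kept Dkc1 first (22.7 RPKM), followed by Tinf2 (10.9) and Terf2 (9.66), which overlapped and ended with Tert. In young AE the order began with Tinf2 (8.88 RPKM), Terf2ip (5.56), Terf2 (4.22) and Acd (3.19), and Dkc1 came next at 2.88 RPKM, with libraries that overlapped those of Acd and Rtel1. In aged AE Dkc1 was further down at 1.29 RPKM, overlapping Pot1a (1.38) and Terf1 (1.10), and Tert was last again at 0.65 RPKM.

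By age, none of the 10 genes was called in either cell type. In ISC the FDR was under 0.05 for 0.00% of all genes by edgeR, and 0 of the 10 had an unadjusted P under 0.05, beside 5.04% of all genes. For 0 of the 10 did aged and young ISC libraries separate, beside 9.00% of all genes. In AE the same was true, with 0 of the 10 called (0.00% of all genes), 0 with an unadjusted P under 0.05 (4.79% of all genes) and 0 with separate groups (10.7% of all genes). DESeq2 called 0 of the 10 in either cell type as well, and 58 of all genes in ISC and 18 in AE. The fitted changes with age in ISC ran from -0.21 for Tert (95% interval -1.03 to 0.61) to 0.36 for Rtel1 (95% interval -0.09 to 0.81). For Tert the sign turned without Y1 ISC, to 0.33. The intervals of the other genes in ISC, Pot1b aside (-0.30 to 0.98), reached from -0.51 for Acd to 0.55 for Pot1a.

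In AE the changes with age ran from -1.09 for Dkc1 (95% interval -2.39 to 0.21, edgeR adjusted p = 0.844) to 0.34 for Pot1b (95% interval -0.36 to 1.04). The value of Dkc1 depended on single libraries. With 1 library left out at a time it ran from -1.53 to -0.32, the latter without Y2 AE, and the lowest edgeR adjusted p was 0.195. In AE, 16 proliferation markers had a median change of -1.32 with age, with 0 of the 16 called by edgeR and 1 at an unadjusted P under 0.05. Those markers summed to 614 CPM in Y2 AE and to between 127 and 206 CPM in the other AE libraries. Y2 AE also had the highest sums of stem cell markers (758 CPM, against 167 to 317 CPM) and of Paneth cell markers (227 CPM, against 52.0 to 91.6 CPM). With age in AE, stem cell markers had a median of -0.98 (9 of 12 lower, 3 higher). Paneth cell markers had a median of -1.17 (6 of 6 lower), and 0 of either list were called. The part of dividing, stem or Paneth cells in the Dkc1 value was not tested. For Tert the change was 0.13 (95% interval -0.82 to 1.08), and for Terf2 it was -0.08 (95% interval -0.49 to 0.34). The difference of the age effect between AE and ISC was called for 0 of the 10 by edgeR and by DESeq2, with 0 at an unadjusted P under 0.05, beside 0.00575% of all genes called by edgeR (1 of 17377, or 19 with the library code as a replicate block), 43 called by DESeq2 and 675 at an unadjusted P under 0.05. It was -1.02 for Dkc1 (95% interval -2.36 to 0.32), 0.44 for Tinf2 (95% interval -0.13 to 1.02) and 0.33 for Tert (95% interval -0.94 to 1.61).

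Other genes of telomere upkeep, listed by name in 3 groups, were set beside the 10. Genes of the CST complex and of polymerase alpha-primase, which together fill in the strand opposite the overhang, were lower in AE throughout. Of this list 7 of 7 were called lower at each age, beside 26.7% of all tested genes in young and 34.2% in aged mice. Median log2 fold changes were -1.92 in young and -2.48 in aged mice. Prim1, a primase subunit, fell from 60.3 ± 4.78 CPM (SD, n = 3) in young ISC to 4.66 ± 4.36 CPM in young AE and from 57.7 ± 8.23 to 1.93 ± 0.43 CPM in aged mice. Pola1, the polymerase subunit, fell from 50.4 ± 2.77 to 4.64 ± 4.54 CPM and from 39.9 ± 8.27 to 1.89 ± 0.33 CPM.

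Of 12 genes for the telomerase RNA and for its assembly and maturation, 11 were tested. The RNA itself, Terc, had no row. At each age 9 were called lower in AE, 1 higher and 1 not called, with medians of -2.23 in young and -2.88 in aged mice. Beside this, 26.7% of all tested genes were called lower in young and 34.2% in aged mice. Gar1, which sits beside Dkc1 in H/ACA particles, fell from 70.8 ± 18.0 to 5.94 ± 4.48 CPM in young and from 67.1 ± 10.4 to 2.36 ± 0.30 CPM in aged mice, and Ruvbl1, an ATPase that helps to assemble them, fell from 27.6 ± 4.70 to 4.26 ± 1.79 CPM and from 26.8 ± 5.54 to 1.32 ± 0.43 CPM. The gene called higher was Tep1, a protein that binds the telomerase RNA and is also part of vault particles, with 108 ± 17.2 CPM in ISC and 335 ± 23.8 CPM in AE of young mice (log2 fold change 1.63 ± 0.17, edgeR adjusted p = 2.29e-04) and 1.49 ± 0.24 in aged mice (edgeR adjusted p = 3.78e-04). Wrap53, which carries telomerase to Cajal bodies, was not called (-0.41, edgeR adjusted p = 0.0906 in young, and -0.19, edgeR adjusted p = 0.351 in aged mice). Tep1 and Wrap53 were singled out after their values were seen.

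Partners of shelterin and enzymes that process telomere ends were mixed. In young mice 8 of 16 were called lower, 2 higher and 6 not, and in aged mice 10 lower, 1 higher and 5 not, with medians of -0.66 and -0.75. Of all tested genes, 26.7% were called lower in young and 34.2% in aged mice, and 55.6% and 64.9% in either direction. The helicase Blm fell from 16.1 ± 1.31 to 2.06 ± 2.31 CPM in young and from 15.4 ± 3.86 to 0.86 ± 0.27 CPM in aged mice, and the flap endonuclease Fen1 from 89.1 ± 17.0 to 14.9 ± 10.2 CPM and from 80.9 ± 8.09 to 9.33 ± 2.05 CPM. The poly-ADP-ribosyltransferase Tnks (tankyrase) was higher in AE at both ages (log2 fold change 0.68 in young and 0.77 in aged mice), and the nuclease scaffold Slx4 was higher in young AE (0.92, edgeR adjusted p = 0.0107) and at 0.63 in aged mice (edgeR adjusted p = 0.0508). These 2 were named because they were the genes called higher. By age, 0 genes of the 3 groups were called in ISC or in AE by edgeR, and 0 in ISC had an unadjusted P under 0.05. In AE, 3 of the 11 tested genes of the telomerase assembly list had such a P, and 0 of the other lists. Of all tested genes, 5.04% in ISC and 4.79% in AE had such a P. With age in AE, 10 of the 11 assembly genes were lower (median log2 fold change -0.63, beside -0.04 over all genes). The CST and polymerase list had 7 of 7 lower (-0.39), and the shelterin partners 10 of 16 lower (-0.09). The 16 proliferation markers were called lower in AE at both ages, 16 of 16, with medians of -3.14 and -4.40, and 12 of 12 stem cell markers were too. Some genes of these groups, such as Prim1, Pola1 and Fen1, also serve DNA replication. The part of cell division in the levels of the 3 groups was not tested.

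**Figure D4:**
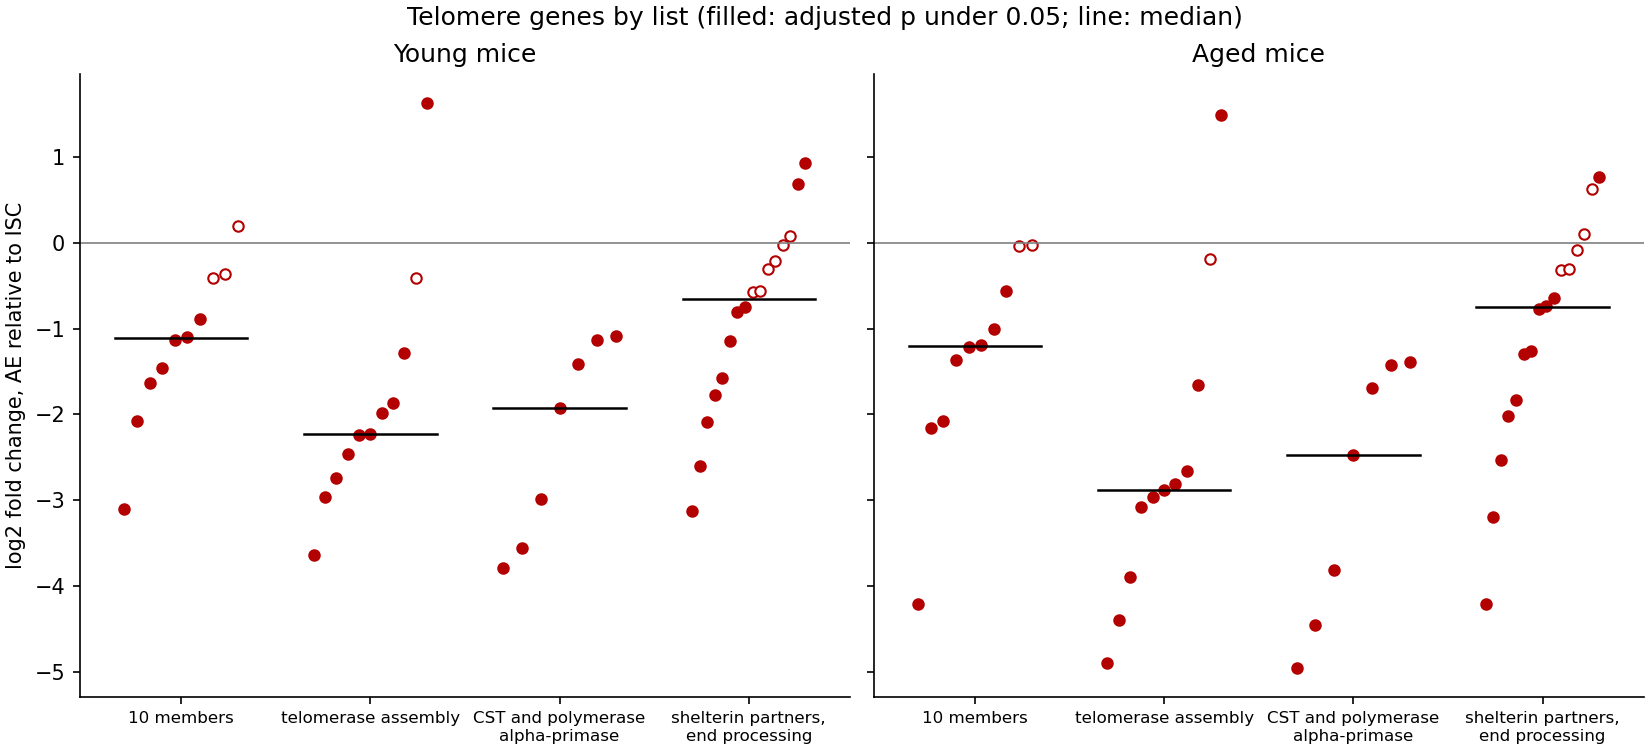
Log2 fold changes of AE relative to ISC for the 10 genes and for 3 lists of other telomere genes, in young mice on the left and aged mice on the right, with 1 point per gene, filled for an adjusted p under 0.05, and a line at each list's median. All 7 genes of CST and polymerase alpha-primase are filled and below 0, and Tep1 stands highest in the telomerase assembly list.

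Over the 12 libraries, the genes most like Tert in log2 CPM among 12641 genes compared were Zfp287 (Pearson r = 0.951), A230050P20Rik (0.950) and Zcchc8 (0.945), and those most like Dkc1 were Prmt7, C1qbp and Gar1 (each 0.998). The points share the ISC and AE split and the libraries, so the coefficients are a description of that split.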

How the data were processed

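RNA-seq of 12 libraries (3 each of young ISC, aged ISC, young AE and aged AE) was analysed from the raw counts the authors deposited. Per the labels and the study's methods, sorted cells gave directional poly(A) libraries read as 50-base single ends. The authors trimmed reads with Trim Galore 0.4.4, mapped them to GRCm38 with HISAT2 2.1.0 and counted unique reads per gene over merged exons in SeqMonk. The strand setting and annotation release are not given in the sources used here. The other deposited table, with the authors' own comparisons of selected genes (fold changes and FDR), was not used.

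Genes were kept where the libraries compared held at least 10 counts in total. TMM scaling and the quasi-likelihood test of edgeR 4.0.16 in R 4.3.3 were used (glmQLFit, glmQLFTest, two-sided), with Benjamini-Hochberg adjustment over all genes tested and an FDR threshold of 0.05. Each comparison used its own 2 groups, and the difference of age effects all 4. The fit was run on simulated counts with planted changes. Those counts held no outlying library and no scatter particular to a gene, so that run does not speak to either. CPM values use TMM over all 12 libraries, and RPKM divides them by merged exon lengths from GENCODE M21, where 93.1% of rows matched by name and chromosome and 86% also by start and end. Beside genes that overlap a member on the genome, no member shared more than 2.97% of its 50-base stretches with another gene. Columns were placed in groups by their names. Deviations from the group means correlated over genes in all 6 pairs of libraries that share a code (Pearson r = 0.213 to 0.431), and less in the 12 other pairs (-0.376 to 0.110). Deviations within a group cancel out, so positive pairs lower the others, and the low values are no separate support for pairing. AE against ISC was therefore also fitted with the code as a replicate block. Alternatives were RLE and upper-quartile scaling, no filter and filterByExpr, DESeq2 1.42.0, limma-voom (limma 3.58.1), thinning of the deepest library, a fit on all 4 groups and leaving out each library. The members and lists were chosen with earlier results of these data known. Named genes are the 10 members, the 2 of each list with the widest change between AE and ISC averaged over both ages, the 3 most like Tert and Dkc1, and markers where a result touches them, beside 4 list genes (Tep1, Wrap53, Tnks and Slx4) named after their values were seen.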

Additional observations from a re-analysis of the deposited data

How the results depend on the processing

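Calls of the 10 genes changed little with the processing. AE against ISC gave 7 or 8 genes in young and in aged mice under all other scalings, filters and tools, and 0 of the 10 were called by age under each of them. Beside this, 55.6% of all genes in young and 64.9% in aged mice were called in the main fits of AE against ISC. Of all genes called in that contrast, 47.0 to 52.2% were higher in AE in young mice and 44.4 to 50.1% in aged mice under these settings. Upper-quartile scaling lowered the median of all genes in young AE against ISC from 0.15 to 0.03. The aged call of Pot1a was lost with RLE scaling (adjusted p = 0.0542), DESeq2 (0.0641) and the fit on all 4 groups (0.121); the cause was not tested. With the replicate block, 7 genes were called in young and 8 in aged mice, and the block changed no call of the 10. For the difference of age effects the replicate block called 19 of all genes, against 1 without it, and 0 of the 10.

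Values near 0 turned sign. For age in AE, Pot1a was -0.0042 with upper-quartile scaling, -0.087 with limma-voom and -0.013 on all 4 groups, and Rtel1 was -0.015, -0.0066 (filterByExpr) and -0.014 (all 4 groups). For aged AE against ISC, Terf2ip was 0.057 with RLE scaling, 0.056 with DESeq2, 0.0058 with filterByExpr and 0.043 on all 4 groups, and Tinf2 was 0.047 with RLE scaling, 0.046 with DESeq2 and 0.031 on all 4 groups. With 1 library left out at a time, age in ISC ran from -0.17 to 0.041 for Dkc1, -0.18 to 0.0068 for Terf2ip and -0.47 to 0.33 for Tert. Age in AE ran from -0.22 to 0.44 for Tert, -0.10 to 0.30 for Terf1, -0.22 to 0.011 for Terf2, -0.23 to 0.36 for Pot1a and -0.14 to 0.12 for Rtel1. Aged AE against ISC ran from -0.21 to 0.098 for Terf2ip and -0.14 to 0.095 for Tinf2, and the difference of age effects from -0.22 to 0.61 for Tert.

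Counts of all genes called by age stayed small by edgeR and not by DESeq2. In ISC the count was 0, with 1 without a filter, 3 on all 4 groups, 58 by DESeq2 and 0 to 1 with a library left out. In AE it was 0, with 1 after thinning, 2 on all 4 groups, 18 by DESeq2 and 0 to 1 with a library left out. Without Y3 AE, 2211 of 14848 genes had an unadjusted P under 0.05 for age in AE by edgeR, against 779 of 16265 with all libraries. Leaving out any other AE library gave between 393 and 683 such genes. The difference of age effects gave 43 by DESeq2, 0 by limma-voom and 0 to 3 with a library left out. Depth limits the rarer genes in AE: Tert had 29 to 62 counts in all AE libraries but Y3.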
